A study of Mus musculus with 47 samples.

Results

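The 10 genes described here encode the heavy chains, the light chain and the peptide loading machinery of major histocompatibility complex (MHC) class I. They were taken by symbol from the 20456 genes of the count table, and all 10 were found and passed the filter on low counts that left 16892 genes. H2-K1 and H2-D1 encode the classical heavy chains. H2-Q4, H2-Q6, H2-Q7 and H2-Q10 encode nonclassical heavy chains of the Q region. B2m encodes beta-2-microglobulin, the light chain that all of these heavy chains pair with. Tap1 and Tap2 encode the subunits of the transporter that carries peptides into the endoplasmic reticulum, and Tapbp encodes tapasin, which holds empty class I molecules at that transporter.

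MHC class I molecules display peptides from inside the cell to CD8+ T cells and are recognised by receptors of natural killer cells. The peptides are cut by the proteasome, in many cells by its immunoproteasome form, and are loaded in the endoplasmic reticulum before the complex moves to the cell surface. Transcription of these genes is raised by interferons and by NF-kappa B, and the fetal tissues are known for low levels compared with the adult. The protein of H2-Q10 is mainly secreted by the liver, and the proteins of H2-Q6 and H2-Q7 are known as Qa-2, which is tethered to the membrane by a lipid anchor.

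RNA was sequenced from liver, lung and brain of C57BL/6 embryos at E18.5 in 47 libraries. S226A embryos carried on both alleles of Daxx, an H3.3 histone chaperone, a serine-to-alanine change that abolishes binding to H3.3, and Y130A embryos a tyrosine-to-alanine change that abolishes binding to Atrx. The embryos were homozygous offspring of heterozygous intercrosses and were compared with wild-type littermates from 4 litters per allele, with 12 groups of 4 libraries, 1 of which (wild-type lung from the litters of Y130A) had only 3. Total counts were 15722147 to 26190403 reads in the S226A litters and 36351738 to 54885020 reads in the Y130A litters. Both alleles were made in C57BL/6N zygotes and then crossed to C57BL/6J, and each allele is 1 knock-in line. On GRCm38 (GENCODE M21), 9 of the 10 genes lie on chromosome 17 with Daxx (chr17:33909414-33915590), so that the Daxx allele and linked DNA cannot be told apart in these groups. Tapbp (chr17:33915899-33929292) begins 309 bases after Daxx, H2-K1 (chr17:33996017-34000347) lies 80.4 kb from it, Tap1 (chr17:34187553-34197225) 272 kb and Tap2 (chr17:34203527-34216321) 288 kb. H2-D1 (chr17:35262730-35267499), H2-Q4 (chr17:35379617-35385290), H2-Q6 (chr17:35424850-35430055), H2-Q7 (chr17:35439155-35443773) and H2-Q10 (chr17:35470089-35474563) lie 1.35 to 1.55 Mb from Daxx. B2m lies on chromosome 2 (chr2:122147686-122153083). The Daxx transcript itself did not separate the groups, with 40.2 ± 3.89 CPM (counts scaled by library size; mean ± SD, n = 4) in S226A liver and 41.4 ± 6.55 CPM (n = 4) in wild-type liver, so that it does not check the genotype labels, which concern point mutations.

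The heavy chain genes share a promoter segment known to carry sites for interferon signals and NF-kappa B. It is shown for the 6 heavy chains and B2m so that the members that changed in the mutants can be set beside those that did not. The RefSeq promoter table (GRCm38.p6) held 9 of the 10 genes, and Tap2 is named only. Each stretch of 110 bases is printed on the strand of the gene, ends before the RefSeq start and, for the heavy chains, is aligned on the interferon response motif TTTCACTTCT. Capitals mark that motif, the kappa B motif GGGGATTCCC and, in B2m, GAAA followed after any 2 bases by GAAA, and GGGACTTTCC, which is read there on the other strand.
H2-K1 (chr17:34000363-34000472, - strand): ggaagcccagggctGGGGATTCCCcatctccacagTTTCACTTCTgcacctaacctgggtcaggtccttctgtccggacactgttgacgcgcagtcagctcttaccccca
H2-D1 (chr17:35262909-35263018, + strand): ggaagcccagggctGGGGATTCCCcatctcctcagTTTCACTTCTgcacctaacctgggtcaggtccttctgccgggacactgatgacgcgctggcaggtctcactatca
H2-Q4 (chr17:35379429-35379538, + strand): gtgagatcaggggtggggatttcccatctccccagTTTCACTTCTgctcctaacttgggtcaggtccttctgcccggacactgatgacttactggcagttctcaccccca
H2-Q6 (chr17:35424663-35424772, + strand): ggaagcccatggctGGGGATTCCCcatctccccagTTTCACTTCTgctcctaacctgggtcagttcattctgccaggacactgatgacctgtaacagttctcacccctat
H2-Q7 (chr17:35439007-35439116, + strand): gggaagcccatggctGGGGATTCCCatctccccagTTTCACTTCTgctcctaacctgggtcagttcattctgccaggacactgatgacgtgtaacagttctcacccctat
H2-Q10 (chr17:35469899-35470008, + strand): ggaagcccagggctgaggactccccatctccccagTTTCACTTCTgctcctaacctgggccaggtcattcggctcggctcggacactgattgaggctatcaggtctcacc
B2m (chr2:122147513-122147622, + strand): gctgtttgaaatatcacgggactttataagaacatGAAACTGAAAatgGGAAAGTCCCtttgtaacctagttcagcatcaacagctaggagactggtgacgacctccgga

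All 6 heavy chain genes held TTTCACTTCT within 250 bases upstream of their starts, as did 0.131% of the 32851 promoters of the table, counting both strands. H2-K1, H2-D1, H2-Q6 and H2-Q7 held GGGGATTCCC, as did 0.0852% of all promoters. At that place H2-Q4 had the similar letters ggggatttcc and H2-Q10 gaggactccc, which were not counted as matches. B2m was the only member of the 9 with the spaced GAAA pair (2.98% of all promoters) and with GGGACTTTCC (0.14%). CCAAT stood in 8 members and 33.8% of all promoters, and TGACGC in H2-K1 and H2-D1 and 6.12%. Compared base by base without gaps, the printed stretches of H2-K1 and H2-D1 had 99 of 110 bases in common and those of H2-Q6 and H2-Q7 had 97. The letters of TTTCACTTCT and GGGGATTCCC were taken from the H2-K1 promoter, and those of GGGACTTTCC from that of B2m. These genes thus match by construction, and like paralogs may follow, so that the shares of all promoters test nothing here. A match describes letters in a window and is not a bound site. Tap1 and Psmb9, an immunoproteasome gene, start within 250 bases of each other on opposite strands.

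The levels of these genes differed between the tissues (see the plot of all libraries). In wild-type embryos, all 10 genes were lower in brain than in liver by edgeR's quasi-likelihood test (adjusted p below 0.05, the criterion for a called gene here), which 87.3% of all genes tested passed in either direction and 41.8% with lower values in brain. In lung, 9 of 10 were lower than in liver (80.1% of all genes were called and 37.8% with lower values), Tap2 being the exception with a log2 fold change of -0.05 ± 0.10 (SE, adjusted p = 0.651, edgeR). Between lung and brain, 84.0% of all genes were called, and of the members 8 were higher in lung (41.3% of all genes) and 1 was lower (42.8%). H2-D1 between lung and liver was close to the threshold, with -0.24 ± 0.08 (adjusted p = 0.0105, edgeR), and -0.08 ± 0.09 (adjusted p = 0.464) with embryo as block, which ended the call, as did DESeq2, RLE size factors and a fit of only the libraries compared. In these bulk samples, fewer cells of a type and less RNA per cell cannot be told apart.

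**Figure D1:**
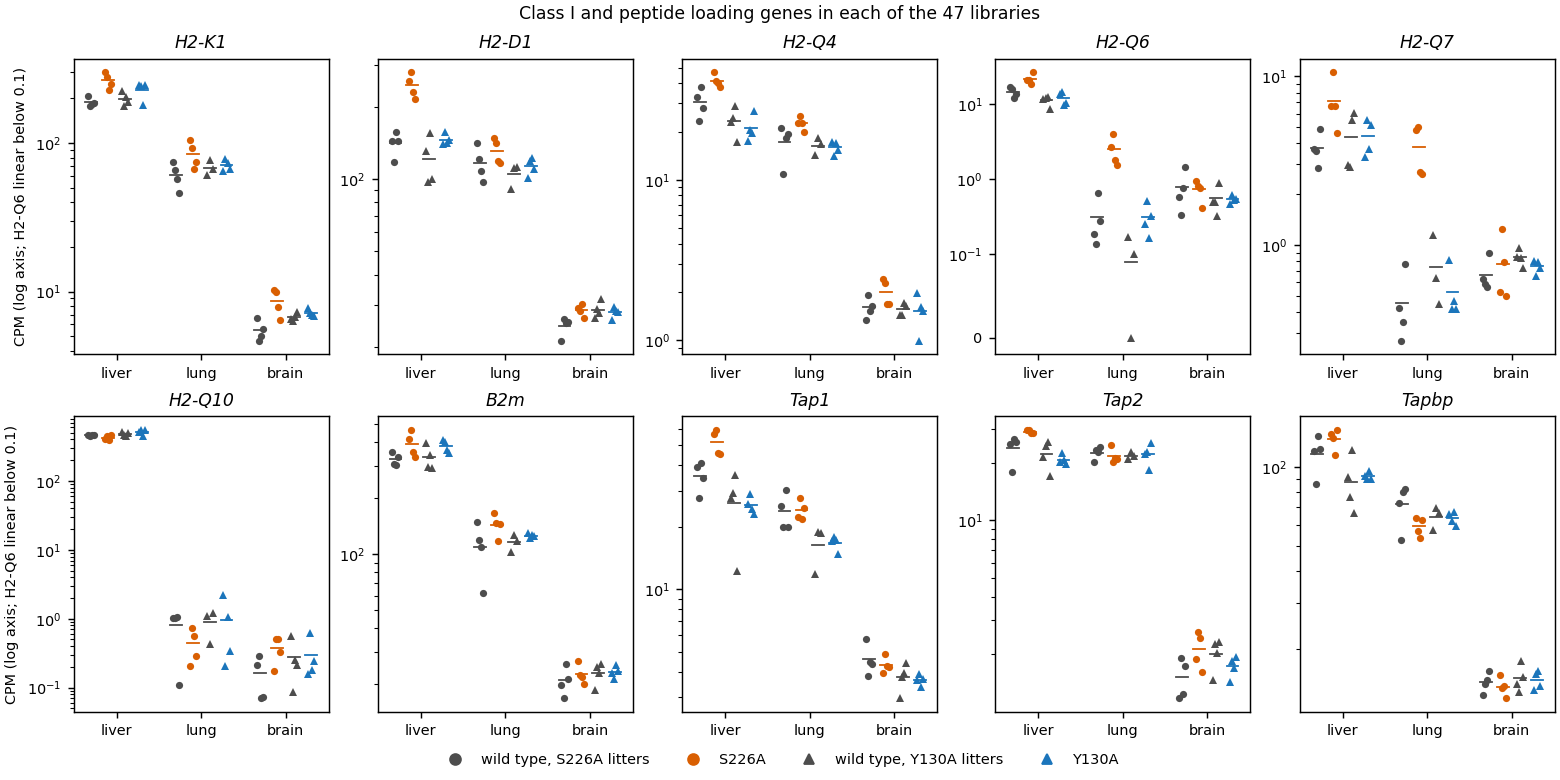
CPM (log axis) of each of the 10 genes in the 47 libraries by tissue, with wild-type libraries in grey, S226A in orange and Y130A in blue, circles for the S226A litters and triangles for the Y130A litters, and lines at the group means. Liver is the highest tissue for most genes, and H2-Q6 and H2-Q7 in S226A lung stand above all other lungs.

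H2-Q10, the secreted heavy chain, was a liver transcript. It measured 446 to 512 CPM (median 469, n = 8) in wild-type liver, 0.110 to 1.21 CPM (median 1.03, n = 7) in lung and 0.0704 to 0.554 CPM (median 0.213, n = 8) in brain. No library of lung or brain came near the lowest liver library. The summed level of 4 hepatocyte genes (Alb, Apoa1, Afp and Serpina1a) in lung ranged from 8.45 CPM to 1170 CPM between libraries. The lung with the highest sum, that of Y130A litter 2848, also had the highest H2-Q10 level of the lungs, 2.20 CPM, and among the wild-type lungs of the S226A litters the one with the lowest sum, 8.98 CPM, had the lowest H2-Q10 level, 0.110 CPM. The other 3 of that group were at 1.03, 1.03 and 1.05 CPM with sums of 90.7, 419 and 81.0 CPM, and the Y130A lung of litter 3069 was at 0.345 CPM with a sum of 244 CPM, so that the levels did not follow the sums throughout. The part of liver RNA in the H2-Q10 reads of lung was not tested.

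Per kilobase of exon, B2m was the highest of the 10 genes in every tissue, with a median of 373 CPM per kb in wild-type liver (340 to 464), 137 in lung (71.7 to 174) and 25.8 in brain (19.6 to 30.0). In liver it was followed by H2-Q10 with 108 CPM per kb (103 to 118), H2-K1 with 63.7 (60.8 to 76.5), H2-D1 with 53.3 (37.6 to 60.7) and Tapbp with 28.6 (at most 36.3), with no overlap of the ranges of neighbours, although H2-K1 and H2-D1 nearly met. H2-Q4 (6.61 to 14.7 CPM per kb), Tap2 (median 6.56), H2-Q6 (5.91) and Tap1 (5.81) followed with overlapping ranges, and H2-Q7 was lowest with 0.856 (0.674 to 1.42). These levels divide by the whole annotated exon length, which is long in H2-Q7 and H2-Q10 (4265 and 4348 bases) and understates them where only part of it is transcribed.

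The leading classical heavy chain differed between the tissues. Per kilobase, H2-K1 divided by H2-D1 gave 1.03 to 1.65 (median 1.30, n = 8) in wild-type liver, 0.415 to 0.608 (median 0.478, n = 7) in lung and 0.156 to 0.276 (median 0.197, n = 8) in brain. The 3 ranges did not overlap, and H2-K1 was above H2-D1 in every wild-type liver and below it in every wild-type lung and brain. Of the summed level of the 6 heavy chains, H2-D1 made up 76.4% (71.6% to 79.1%) in brain and 60.7% (56.3% to 63.5%) in lung, and H2-Q10 44.5% (41.2% to 50.1%) in liver.

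**Figure D2:**
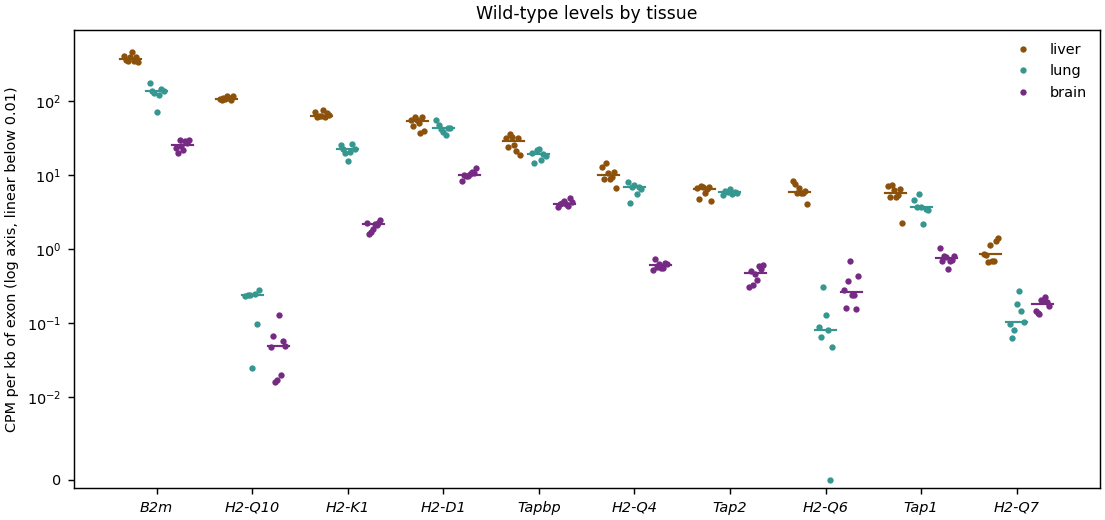
Levels of the 10 genes in wild-type liver (8 libraries), lung (7) and brain (8) in CPM per kb of exon (log axis, linear below 0.01), with 1 point per library and lines at the medians. Genes stand in the order of their liver medians, from B2m at 373 to H2-Q7 at 0.856, and H2-Q10 shows the widest gap between liver and the other tissues.

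H2-Q6 and H2-Q7, which encode Qa-2, were also liver transcripts in the wild type. H2-Q6 measured 8.55 to 17.2 CPM (median 12.3) in liver, 0.0 to 0.651 CPM (median 0.170) in lung and 0.321 to 1.44 CPM (median 0.544) in brain. H2-Q7 measured 2.87 to 6.06 CPM (median 3.65) in liver, 0.270 to 1.15 CPM (median 0.443) in lung and 0.563 to 0.962 CPM (median 0.781) in brain. H2-Q6 was lower in lung than in brain (log2 fold change -1.96 ± 0.36, adjusted p = 4.45e-06, edgeR), and for H2-Q7 the difference was -0.38 ± 0.27 (adjusted p = 0.182). Reads from stretches shared between paralogs may be given to another gene or not be counted. Of the windows of 76 bases in its annotated transcripts, 17.4% of H2-Q6, 16.7% of H2-Q7, 12.3% of H2-Q10 and 6.67% of H2-Q4 also occur in transcripts of other genes, against 2.96% of H2-K1, 5.33% of H2-D1, 1.05% of Tapbp and 0.0% of B2m, Tap1 and Tap2. The windows of 76 bases in H2-Q7 are shared most with H2-Q10, H2-Q5 and H2-Q6. The read length is not given in the sources used here, and with windows of 50 bases the shares of H2-Q6 and H2-Q7 are 32.0% and 26.4%.

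In S226A liver, both classical heavy chain genes rose. H2-D1 rose 1.75-fold and H2-K1 1.40-fold, and none of the 10 genes was called with lower values. These 2 called genes of 10 stand against 11.7% of all genes called in S226A liver, and against 6.14% called with higher values, so that the count is not far from that background. The median log2 fold change of the 10 genes was 0.46, against -0.01 over all genes tested. In 5 of the 10 (H2-K1, H2-D1, H2-Q6, Tap1 and Tap2), every S226A liver lay above every wild-type liver. Of all genes, 11.9% were apart in this way and 6.7% with higher values in S226A.

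H2-D1 measured 257, 278, 231 and 216 CPM in the S226A livers of litters 2972, 2881, 2875 and 2970, and 144, 118, 157 and 145 CPM in the wild-type livers of the same litters. The groups did not overlap, and the mutant was higher in 4 of 4 litters. The log2 fold change was 0.80 ± 0.12 (adjusted p = 2.19e-06, edgeR). H2-K1 measured 299, 280, 228 and 252 CPM in the S226A livers and 208, 179, 184 and 186 CPM in the wild-type livers in the same order. Here too the groups did not overlap, with a log2 fold change of 0.49 ± 0.13 (adjusted p = 0.00951). The exact permutation p was 0.0286 for both genes, the smallest that 4 libraries against 4 can give. Both calls held under each alternative and without each library apart from the stringent criterion of the study (adjusted p below 0.01, log2 fold change beyond 1 and SE below 1), which 0 of the 10 and 2.1% of all genes passed. The ratio of H2-K1 to H2-D1 per kilobase was 0.866 to 1.02 in S226A liver and 1.03 to 1.33 in its wild-type littermates, without overlap.

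The Q region heavy chains did not pass the test in S226A liver. H2-Q7 measured 6.65, 10.5, 6.62 and 4.58 CPM in the S226A livers of litters 2972, 2881, 2875 and 2970 and 3.68, 3.61, 2.87 and 4.84 CPM in the wild-type livers. The groups overlapped through litter 2970, in which the wild-type liver was the higher. The log2 fold change was 0.92 ± 0.32 (adjusted p = 0.0567, edgeR), with an adjusted p of 0.0358 by DESeq2, of 0.0338 without the S226A liver and of 0.0465 without the wild-type liver of that litter. H2-Q6 measured 18.8 to 26.7 CPM in S226A liver and 12.1 to 17.2 CPM in wild-type liver, without overlap, but with a log2 fold change of 0.56 ± 0.31 (adjusted p = 0.269). With only the libraries compared, H2-Q6 was called, with 0.58 ± 0.16 (adjusted p = 0.0327, edgeR). H2-Q4 had 0.44 ± 0.17 (adjusted p = 0.0888), and H2-Q10, at 387 to 463 CPM against 446 to 472 CPM, had -0.12 ± 0.23 (adjusted p = 0.812). H2-Q10 was higher in the mutant in 0 of 4 litters.

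The light chain and loading genes did not pass the test in S226A liver either. Tap1 measured 56.7, 59.2, 45.6 and 45.2 CPM in the S226A livers and 39.0, 27.9, 40.8 and 34.5 CPM in the wild-type livers, in the order of litters above. The groups did not overlap, and the log2 fold change was 0.54 ± 0.19 (adjusted p = 0.0502, edgeR). With only the libraries compared, Tap1 was called, with 0.55 ± 0.13 (adjusted p = 0.0174, edgeR). Tap2 had 0.29 ± 0.14 (adjusted p = 0.199) with a non-overlapping 28.5 to 29.8 CPM against 17.9 to 26.6 CPM, and Tapbp 0.19 ± 0.13 (adjusted p = 0.376). Without the wild-type liver of litter 2881, which had the 17.9 CPM of Tap2 and held transcripts of squamous epithelium, these log2 fold changes were 0.17 (adjusted p = 0.525) and 0.08 (0.783). B2m measured 335 to 467 CPM against 303 to 354 CPM and had 0.28 ± 0.15 (adjusted p = 0.249), and 0.18 (0.530) without the S226A liver of litter 2881. With litter as block, 6 of the 10 genes were called in S226A liver, adding H2-Q4 (adjusted p = 0.0202), H2-Q6 (0.0231), B2m (0.0408) and Tap1 (0.0101) to H2-D1 and H2-K1, while in that fit 10.7% of 13647 genes were called and 6.46% with higher values.

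Other genes of the class I pathway moved in both directions in S226A liver. Of 35 tested genes from a list of proteasome subunits, chaperones, regulators and class Ib heavy chains, 6 rose and 3 fell, while of all genes 11.7% were called and 6.14% with higher values. The immunoproteasome subunits rose, Psmb8 with a log2 fold change of 0.96 ± 0.18 (adjusted p = 0.000146, edgeR), Psmb9 with 0.82 ± 0.23 (0.0135) and Psmb10 with 0.36 ± 0.11 (0.0229), as did the proteasome activator Psme2 (0.38 ± 0.10, 0.0111), the peptide-trimming enzyme Erap1 (0.42 ± 0.10, 0.00354) and the class Ib heavy chain H2-T22 (0.51 ± 0.11, 0.000916). Psmb8 stood at 35.6 to 48.2 CPM in S226A liver and at 18.1 to 25.6 CPM in wild-type liver. The genes that fell were Fcgrt (-0.54 ± 0.11, 0.000576), the neonatal Fc receptor, Hfe (-0.43 ± 0.14, 0.0310), which acts in iron sensing, and the nuclear proteasome activator Psme3 (-0.18 ± 0.06, 0.0488). Fcgrt and Hfe encode class I-like heavy chains that do not present peptides. The median of the 35 genes was 0.06, and Nlrc5, the transactivator of class I genes, had 0.38 ± 0.36 (adjusted p = 0.582).

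Of 15 interferon-stimulated genes tested, 2 were called with higher values in S226A liver and none with lower. Of all genes, 11.7% were called and 6.14% with higher values. Bst2 (0.81 ± 0.22, adjusted p = 0.00907, edgeR) and Gbp2 (0.77 ± 0.23, adjusted p = 0.0207) were the genes that rose, and the median of the list was 0.03. With litter as block, 4 were called (10.7% of all genes), and without the wild-type liver of litter 2881, 1 of 2 livers that held transcripts of squamous epithelium, 0 (10.6%). Class II genes, which serve presentation to CD4+ T cells, went the other way: of 7 tested, 4 fell and none rose. H2-Aa fell by 4.32 ± 0.54 on the log2 scale (adjusted p = 1.39e-07) and H2-Eb1 by 3.82 ± 0.45 (3.02e-08), and the invariant chain Cd74 stood at 0.928 to 3.05 CPM in S226A liver and 9.33 to 11.9 CPM in wild-type liver.

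**Figure D3:**
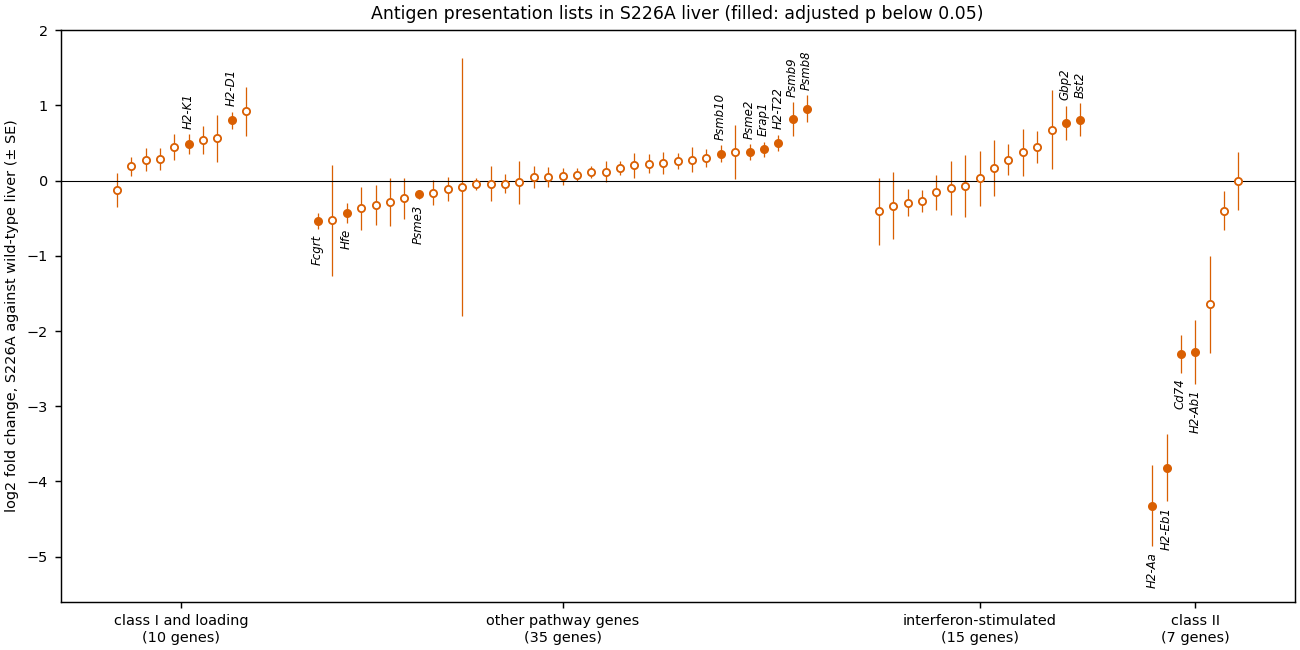
Log2 fold changes of S226A against wild-type liver with their standard errors for the 10 class I and loading genes, 35 other genes of the pathway, 15 interferon-stimulated genes and 7 class II genes, ordered by value within each list. Filled points are genes with an adjusted p below 0.05, 2 of 10, 9 of 35, 2 of 15 and 4 of 7, and the class II genes fall while H2-K1 and H2-D1 rise.

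Summed markers of several cell types differed in the same livers. The sum of 8 neutrophil genes was 8790 to 9450 CPM in S226A liver and 3030 to 3600 CPM in wild-type liver, and that of 10 macrophage genes 236 to 321 CPM against 979 to 1150 CPM. The sum of 6 B lineage genes was 35.6 to 75.5 CPM against 79.5 to 99.6 CPM, and that of 7 T and NK cell genes had a median of 16.7 CPM against 12.1 CPM, also without overlap, although none of the 7 was called by edgeR (1 at an unadjusted p below 0.05) and 3 had a log2 fold change above 0. The sum of 5 endothelial genes was 272 to 335 CPM against 361 to 408 CPM, with 2 of the 5 called lower. The sum of 4 hepatocyte genes was 136000 to 159000 CPM against 162000 to 167000 CPM. At most 1 gene of each of these lists was without a read in a group. The part of these cell types in the class I values was not tested. The genes most like H2-D1 across all 47 libraries, by Pearson correlation of log2 CPM after subtracting each tissue's mean, were Emb (r = 0.85), Actr2 (0.82) and H2-T22 (0.804), and those most like H2-K1 were the neutrophil collagenase gene Mmp8 (0.709), B2m (0.694) and Erap1 (0.679). B2m was most like Samd9l (0.733), Capza1 (0.698) and H2-K1. The libraries share litters and tissues, so that these values only describe them.

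In S226A lung, H2-Q6 and H2-Q7 rose about 8-fold, which was the largest difference of the 10 genes in any comparison of a mutant with its littermates. Together with H2-K1, 3 of the 10 genes were called with higher values and none with lower, while 1.88% of all genes were called and 0.852% with higher values. By the stringent criterion, H2-Q6 and H2-Q7 were the 2 members called, against 0.302% of all genes, and these 2 were also the members without overlap, against 3.81% of all genes and 2.09% with higher values. The other 7 genes had a log2 fold change from -0.91 (H2-Q10) to 0.39 (B2m), and the median over all 10 was 0.27 against 0.00 over all genes.

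H2-Q7 measured 4.82, 5.03, 2.70 and 2.64 CPM (117, 108, 58 and 64 reads) in the S226A lungs of litters 2972, 2881, 2875 and 2970, and 0.422, 0.270, 0.351 and 0.767 CPM (9, 6, 7 and 14 reads) in the wild-type lungs. Every S226A lung lay above every wild-type lung of both litter sets. The log2 fold change was 3.08 ± 0.38 (adjusted p = 1.11e-06, edgeR), an 8.45-fold difference. H2-Q6 measured 2.72, 3.96, 1.82 and 1.53 CPM (66, 85, 39 and 37 reads) in the S226A lungs and 0.188, 0.135, 0.651 and 0.274 CPM (4, 3, 13 and 5 reads) in the wild-type lungs in the same order. The groups again did not overlap, and the log2 fold change was 3.01 ± 0.44 (adjusted p = 2.53e-05), an 8.05-fold difference. The exact permutation p was 0.0286 for both, the smallest possible.

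With reads of both genes summed, so that a split between this pair does not matter, the log2 fold change in S226A lung was 3.06 ± 0.30 (adjusted p = 3.17e-09, edgeR). Reads given to other paralogs or not counted are not recovered by this sum. With litter as block, the adjusted p was 0.0278 for H2-Q7 and 0.121 for H2-Q6, whose call was thus lost, with log2 fold changes of 3.05 and 3.01, and with only the 8 lungs in the fit 0.0133 and 0.0708. Without each library in turn, the log2 fold change ranged from 2.89 to 3.44 for H2-Q7 and from 2.70 to 3.64 for H2-Q6, and neither call was lost. Even the S226A lungs stayed below the livers in H2-Q6, which measured 8.55 CPM or more in every liver.

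**Figure D4:**
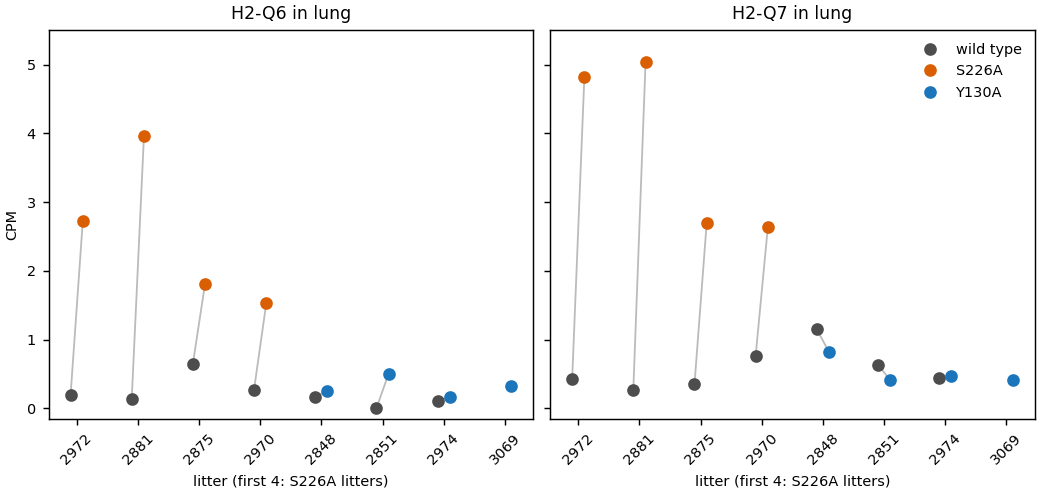
CPM of H2-Q6 and H2-Q7 in each lung library by litter, with wild-type libraries in grey, S226A in orange and Y130A in blue, and lines joining littermates. All 4 S226A lungs lie above all wild-type lungs in both genes, at 1.53 to 3.96 CPM for H2-Q6 and 2.64 to 5.03 CPM for H2-Q7, while Y130A lungs lie within the range of all wild-type lungs, although 3 of 4 lie above those of their own litter set in H2-Q6.

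H2-K1 in S226A lung measured 105, 93.3, 66.8 and 75.1 CPM against 74.8, 65.8, 57.6 and 46.0 CPM in the wild-type lungs of the same litters. The mutant was higher in 4 of 4 litters although the groups overlapped. The log2 fold change was 0.48 ± 0.13 (adjusted p = 0.0469, edgeR), and the call was lost in 5 of the 8 fits that left out 1 lung (adjusted p up to 0.234), with litter as block (0.158), with RLE size factors (0.0582), without the filter (0.0639) and with only the lungs compared (0.712). H2-D1, at 116 to 148 CPM against 97.3 to 142 CPM, had 0.16 ± 0.12 (adjusted p = 0.522). B2m had 0.39 ± 0.15 (adjusted p = 0.171) and was called without the wild-type lung of litter 2972 (adjusted p = 0.0213), and Tapbp had -0.28 ± 0.13 (0.253) and was called without the wild-type lung of litter 2881 (0.0345).

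No gene of the pathway list or of the interferon list was called in S226A lung by edgeR or DESeq2, and at an unadjusted p below 0.05 there were 3 of 35 and 0 of 15. Of the class II list, H2-DMa, a peptide editor, fell by 1.87 ± 0.27 on the log2 scale (adjusted p = 2.29e-05, edgeR), with 5 of 7 at an unadjusted p below 0.05 and 2 called by DESeq2, while with litter as block edgeR called none of that list. The neutrophil sum was 127 to 179 CPM in S226A lung and 32.5 to 76.2 CPM in wild-type lung, without overlap, and the macrophage sum 137 to 173 CPM against 181 to 241 CPM. Of the 10 macrophage genes, 3 were called lower in S226A lung and 1, Cd5l, higher (1.97 ± 0.53 on the log2 scale, adjusted p = 0.0412). Across all libraries, the genes most like H2-Q7 were Cebpe (r = 0.793), a transcription factor of granulocytes, Olfm4 (0.723), a gene of neutrophil granules, and H2-Q6 (0.703). The part of granulocytes in the H2-Q6 and H2-Q7 values was not tested.

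The S226A effects were also tested against each other between tissues, which came from the same embryos apart from the wild-type lung of litter 2970. The S226A effect was larger in lung than in liver for H2-Q6 (difference of log2 fold changes 2.44 ± 0.55, adjusted p = 0.00292, edgeR) and for H2-Q7 (2.16 ± 0.49, adjusted p = 0.00349), and smaller in lung for H2-D1 (-0.64 ± 0.16, adjusted p = 0.0102). These 3 called genes of 10 stand against 6.9% of all genes. With litter as block H2-Q7 was at an adjusted p of 0.0630, and with only the libraries compared H2-D1 was at 0.0657. Between lung and brain, H2-Q6 (3.11 ± 0.61, adjusted p = 0.0119) and H2-Q7 (2.88 ± 0.52, 0.00836) differed, 2 of 10 against 0.124% of all genes, and neither did with litter as block (0.443 and 0.285) or with only the libraries compared (0.234 and 0.0888). H2-Q6 also lost this call without the wild-type brain of litter 2970 (0.0894) or the wild-type lung of litter 2972 (0.0523). Between brain and liver, H2-D1 was called (-0.58 ± 0.17, adjusted p = 0.0373), 1 of 10 against 3.71% of all genes, and 9 of 16 fits without a single library lost the call, with an adjusted p up to 0.0902, reached without the wild-type liver of litter 2881. The call was also lost without the filter (0.0506) and without the 2 livers that held squamous transcripts (0.0913). For H2-K1 the difference between lung and liver was -0.01, with a 95% interval from -0.37 to 0.35.

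In S226A brain, none of the 10 genes was called by edgeR, against 0.243% of all genes. At an unadjusted p below 0.05 there were 2, H2-K1 and Tap2, and DESeq2 called 1, H2-K1. H2-K1 measured 10.3, 9.99, 7.90 and 6.44 CPM in the S226A brains of litters 2972, 2881, 2875 and 2970 and 6.68, 4.66, 5.03 and 5.55 CPM in the wild-type brains. The mutant was the higher in 4 of 4 litters, and the groups overlapped by 1 library. The log2 fold change was 0.66 ± 0.16 (adjusted p = 0.0566, edgeR). DESeq2 gave an adjusted p of 0.00804, and edgeR called it without the S226A brain of litter 2970 (0.0157) or the wild-type brain of litter 2972 (0.0249). H2-D1 did not overlap, with 26.5 to 30.3 CPM against 21.2 to 26.2 CPM, but had 0.22 ± 0.12 (adjusted p = 1.0). It was the 1 gene of 10 without overlap, against 2.48% of all genes and 1.24% with higher values. Of the pathway, interferon and class II lists no gene was called in S226A brain by edgeR or DESeq2, with 1, 0 and 1 at an unadjusted p below 0.05. The neutrophil sum was 6.58 to 14.6 CPM in S226A brain and 3.84 to 5.55 CPM in wild-type brain, and the macrophage sum 62.0 to 75.5 CPM against 108 to 117 CPM, whose part in the H2-K1 values was not tested. H2-Q6, H2-Q7 and H2-Q10 had at most 39 reads in a brain of the S226A litters, and their 95% intervals ran from -0.90 to 0.69 for H2-Q6, from -0.52 to 0.91 for H2-Q7 and from -0.53 to 3.01 for H2-Q10.

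**Figure D5:**
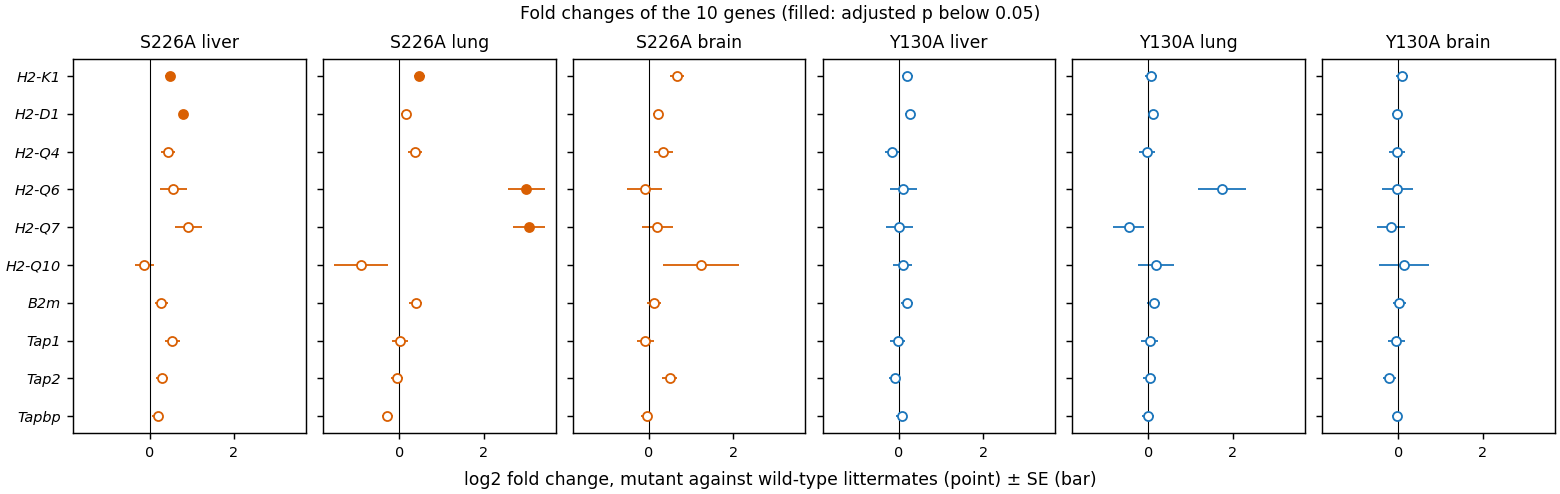
Log2 fold changes with standard errors of the 10 genes in each mutant and tissue against wild-type littermates, with filled points for an adjusted p below 0.05. Filled points are H2-K1 and H2-D1 in S226A liver and H2-K1, H2-Q6 and H2-Q7 in S226A lung, and no gene is filled in Y130A.

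In the Y130A embryos, none of the 10 genes was called in liver, lung or brain by edgeR or DESeq2. The share of all genes called was 0.272% in liver, 0.0178% in lung and 0.00592% in brain. An unadjusted p below 0.05 was reached by H2-D1 in liver and H2-Q6 in lung, and no groups of Y130A and wild-type libraries were apart in any of the 10 genes, while 2.35%, 4.16% and 4.75% of all genes were apart in the 3 tissues. H2-D1 in liver measured 141, 157, 141 and 145 CPM in Y130A of litters 2848, 2851, 2974 and 3069 and 101, 131, 97.0 and 156 CPM in the wild type. The wild-type liver of litter 3069 was above 3 of the 4 mutant livers. The log2 fold change was 0.27 ± 0.11 (95% interval 0.04 to 0.49, adjusted p = 0.422, edgeR). H2-K1 in liver had 0.20 ± 0.13 (95% interval -0.05 to 0.46, adjusted p = 0.73). It was higher in Y130A in 4 of 4 litters, as was B2m in liver. H2-Q7 in lung had -0.47 ± 0.37, with 0.413 to 0.818 CPM in Y130A and 0.443 to 1.15 CPM in the wild type. H2-Q6 in lung had 15, 22, 7 and 14 reads in Y130A and 8, 0 and 5 reads in the 3 wild-type lungs (1.74 ± 0.57, adjusted p = 1.0). With H2-Q6 and H2-Q7 summed, the log2 fold change in Y130A lung was 0.03 ± 0.30. In brain, the log2 fold changes ran from -0.21 to 0.13.

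The S226A and Y130A effects differed for 1 gene in liver and 1 in lung. In liver this was H2-D1, with a difference of 0.54 ± 0.16 (adjusted p = 0.0383, edgeR), against 5.9% of all genes called. It was called without 8 of 16 single libraries and lost without the others (adjusted p up to 0.135, without the wild-type liver of litter 3069), with RLE size factors (0.0552), without the filter (0.0540), with only the libraries compared (0.115), without the 2 livers that held squamous transcripts (0.143) and with litter as block (0.0858), where H2-Q4 was called instead (0.0443). In lung it was H2-Q7, with 3.55 ± 0.52 (adjusted p = 0.000128), against 0.308% of all genes, and an adjusted p of 0.139 with litter as block. For H2-Q6 in lung the difference was 1.27 ± 0.81 (95% interval -0.32 to 2.85, adjusted p = 0.643), so that a difference between the alleles was not shown for it. With H2-Q6 and H2-Q7 summed, the log2 fold change was 3.06 ± 0.30 in S226A lung and 0.03 ± 0.30 in Y130A lung. The difference between these sums was not tested. In brain no gene was called by edgeR or DESeq2 (0.0829% of all genes by edgeR, 2 of the 10 at an unadjusted p below 0.05).

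Of the other lists, 1 gene was called in a Y130A tissue, the class Ib heavy chain H2-M5 in liver. It had 5 to 22 reads in the 4 Y130A livers and none in the 4 wild-type livers of those litters. Set against a floor of 3 reads over the wild-type group, it was at least 15.7-fold higher (adjusted p = 0.00143, edgeR). With litter as block, with only the libraries compared or with these litters thinned to the depth of the others, the call was lost. In the S226A litters it had 0 to 10 reads in wild-type liver.

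The wild-type libraries of the litter sets were also compared, as a background for differences between litters. In liver none of the 10 genes was called by edgeR (13.1% of all genes were), with 3 at an unadjusted p below 0.05, and DESeq2 called Tapbp (adjusted p = 0.0208). In lung H2-Q6 was called, lower in the Y130A litters by 1.74 ± 0.64 on the log2 scale (adjusted p = 0.0490, edgeR), 1 of 10 against 20.1% of all genes, on 0 to 13 reads per library. For H2-Q6 the call was lost without the filter (adjusted p = 0.0572) and in 4 of the 7 fits that left out 1 lung, with a log2 fold change of -1.10 (0.360) without the wild-type lung of litter 2875, -1.17 (0.218) without that of litter 2851, -1.78 (0.0780) without that of litter 2970 and -1.83 (0.0922) without that of litter 2974. In brain none was called by edgeR or DESeq2 (5.98% of all genes by edgeR), with 1 at an unadjusted p below 0.05.

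Within 2 Mb of Daxx, 150 genes other than Daxx were tested. In S226A liver, 17 of them were called, or 11.3% against 11.7% of all genes, and 15 of the 17 were not members. In S226A lung, 6 were called, or 4.0% against 1.88%, of which 3 were members, and in S226A brain 1, which was not a member. In the Y130A tissues edgeR called none of the 150.

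Across the 47 libraries, with tissue means subtracted, the pairs of members most alike were H2-Q6 with H2-Q7 and H2-K1 with B2m. Pearson's r of log2 CPM was 0.703 between H2-Q6 and H2-Q7, 0.694 between H2-K1 and B2m, 0.681 between H2-Q4 and Tap1, 0.671 between H2-D1 and Tap1 and 0.595 between H2-K1 and H2-D1. H2-Q10 was unlike the rest, with r from -0.279 with H2-Q6 to 0.0936 with H2-K1. These values describe libraries that share litters, tissues and depth.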

How the data were processed

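The authors extracted RNA with TRIzol from frozen tissue, and per the labels' notes used FastQC 0.11.5, Trim Galore 0.6.5 and STAR 2.6.0b on GRCm38. The deposited values are raw counts of reads per gene, 1 column per library, without normalization, as summarised by STAR on GENCODE M19. Read length and strand are not given in the sources used here. 1 further wild-type lung of the Y130A litters is not analysed here. Symbols, positions and exon lengths came from GENCODE M21 (20424 of 20456 identifiers matched).

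All 47 libraries were fitted in edgeR 4.0.16 (R 4.3.3) by quasi-likelihood with 1 coefficient per group, TMM normalization and filterByExpr (minimum count 10, minimum total 15), with Benjamini-Hochberg adjustment over 16892 genes. SEs were taken from the log2 fold change and its F statistic. CPM are counts scaled by the TMM library size. Single members were also compared by two-sided exact permutation tests on log2(normalized count + 1). The test was checked on simulated data. The members and gene lists were chosen with earlier results of these data known. The text names all 10 members, from the other lists up to 5 called genes per direction with the largest log2 fold change, with all 6 given for those that rose in S226A liver, and for H2-K1, H2-D1, B2m and H2-Q7 the 3 genes most alike. Nlrc5 was named after its values were seen.

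Alternatives were DESeq2 1.42.0, RLE size factors, no filter, a fit of the compared libraries alone, litter as replicate block (embryo for wild-type tissues), the stringent criterion, each library left out, summed H2-Q paralogs and the Y130A litters thinned. The fit without 2 livers with squamous transcripts (wild type of litter 2881 and Y130A of litter 2848) was chosen after seeing the data. The labels name the litter of each library, so litter pairs mutant and wild type, and in 12 of 23 pairs of littermates the residuals correlated above 0.1, against 4 of 69 other pairs. No 2 replicates were copies (lowest chi-square per degree of freedom 4.17). The libraries came from 17 embryos of 8 litters. P-values of the main fit measure the spread between embryos within groups, pooled for each gene over all tissues. That fit has no term for litter or embryo, although tissues of an embryo share it. In S226A liver the SE of H2-Q6 was 0.31 in the main fit and 0.16 with only the libraries compared. Figures were drawn with matplotlib 3.10.9 in Python 3.11.15.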

Additional observations from a re-analysis of the deposited data

Results flagged for a closer look

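Within groups of 4 libraries, 4 of the 110 sets of member values held 1 library whose gap to the others exceeded Dixon's critical value, and chance gives about 1 in 20. H2-K1 was at 179 CPM in the Y130A liver of litter 2974, below the others at 243 to 248 CPM. H2-Q7 was at 0.818 CPM in the Y130A lung of litter 2848, above 0.413 to 0.466 CPM, in the lung with the highest hepatocyte sum. H2-Q10 was at 0.110 CPM in the wild-type lung of litter 2970, below 1.03 to 1.05 CPM. Tap2 was at 17.9 CPM in the wild-type liver of litter 2881, below 25.1 to 26.6 CPM, in a liver with squamous transcripts (141 CPM over 6 genes).

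An effect differed between groups by the interaction test of edgeR in 8 cases. The S226A effect exceeded the Y130A effect by 0.54 (log2) for H2-D1 in liver and by 3.55 for H2-Q7 in lung. The S226A effect in lung minus that in liver was -0.64 for H2-D1, 2.44 for H2-Q6 and 2.16 for H2-Q7. For H2-D1 the effect in brain minus that in liver was -0.58. The effect in lung minus that in brain was 3.11 for H2-Q6 and 2.88 for H2-Q7. Each of these calls, apart from that of H2-Q6 in lung against liver, was lost under an alternative named above.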

How the results depend on the processing

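Counts are members called. For most of these fits the share of all genes called is not given here. A change in the members can thus not be told from a change over all genes. In S226A liver with litter as block that share was 10.7%. With only the libraries compared there were 4 in S226A liver, 1 in S226A lung, 0 for the difference between the alleles in liver and for the S226A effect in lung against brain, and 0 between wild-type lungs of the litter sets, where H2-Q6 was filtered out and thus not tested. With litter as replicate block there were 6 in S226A liver, 1 in S226A lung, and 0 for the difference between the alleles in lung and for lung against brain. The stringent criterion left 0 in S226A liver, for the difference between the alleles in liver, for brain against liver and between the wild-type lungs. It left 1 for lung against brain and 5 between wild-type lung and liver. DESeq2 gave 1 in S226A brain, and 1 and 2 between wild-type livers and lungs of the litter sets. RLE size factors gave 0 for the difference between the alleles in liver and 1 between the wild-type livers. Without the filter there were 0 for the difference between the alleles in liver, for brain against liver and between the wild-type lungs. Without the 2 livers with squamous transcripts there were 0, 0 and 1 for the difference between the alleles in liver, brain against liver and the wild-type livers. For H2-Q10 in S226A lung, the sum of the 4 H2-Q genes turned the log2 fold change from -0.91 to 0.63, since the sum holds H2-Q6 and H2-Q7. In S226A liver this sum had -0.05, against 0.44, 0.56 and 0.92 for H2-Q4, H2-Q6 and H2-Q7 alone. In Y130A lung it had -0.02, against 1.74 for H2-Q6 alone.

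Leaving out single libraries gave 2 to 4 in S226A liver, 2 to 4 in S226A lung, 0 to 1 in S226A brain and 0 in each Y130A tissue. It gave 0 to 2 for the difference between the alleles in liver and 1 in lung, 3 to 4, 0 to 1 and 1 to 2 for lung against liver, brain against liver and lung against brain, 8 to 9, 10 and 9 to 10 between wild-type lung and liver, brain and liver, and lung and brain, and 0 to 3, 0 to 2 and 0 between wild-type livers, lungs and brains of the litter sets. The block moved no other count of members by over 1.5 times. The cause of these changes was not tested. At 15722147 to 26190403 reads, H2-Q6 and H2-Q7 in wild-type lung of the S226A litters rest on 3 to 14 reads.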
